A study of Mus musculus with 15 samples.

Results

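The genes examined here encode the proteins of the cytosolic ribosome in mouse epiblast-like cells (EpiLCs). They were chosen by name alone: protein-coding rows of the count table with a symbol of the Rpl, Rps or Rplp series, plus Rpsa and Fau, without kinases of the Rps6k series and without pseudogenes. Of 52636 rows, 84 matched by symbol and 81 were annotated as protein-coding, with 32 for the small (40S) subunit and 49 for the large (60S) subunit. The 3 matches left out (Rps4l, Rpl32l and Rpl6l) are annotated as pseudogenes.

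Ribosomal protein genes are housekeeping genes whose products assemble with ribosomal RNA in the nucleolus, with close to equal amounts of each protein in a finished particle. Their mRNAs typically begin with a C followed by a run of pyrimidines, the terminal oligopyrimidine (TOP) motif, through which mTORC1 and the RNA-binding protein LARP1 set their translation and stability. Pluripotent cells divide fast and spend much of their transcription on ribosomes, and the ERK pathway is known to act on ribosome production through the kinases of the RSK family.

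The cells were CRAFR26 EpiLCs, a mouse line that carries a c-RAF kinase construct activated by 4-hydroxytamoxifen (4OHT), sampled after 48 h of EpiLC differentiation as clones 4 and 8. All groups were kept in N2B27 medium with bFGF (12 ng/ml), Activin A (20 ng/ml) and the tankyrase inhibitor XAV939 (1 µM), and all received the FGF receptor inhibitor PD17 (250 nM) for 2 h. The groups were 0h (no 4OHT, n = 3, with 1 library of clone 4 and 2 of clone 8), 2h and 4h (250 nM 4OHT for 2 or 4 h, n = 4 each, 2 per clone) and rev (4OHT for 4 h followed by a MEK inhibitor for 2 h, n = 4, 2 per clone). In rev, the inhibitor and the longer time since 4OHT was added cannot be told apart. Libraries of total RNA depleted of ribosomal RNA were sequenced.

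Library totals ran from 9226145 to 13004556 counts at 0h, from 9713985 to 12752651 at 2h, from 1552022 to 6658950 at 4h and from 8667880 to 11684027 in rev, so the 4h libraries were the thinnest. Mitochondrial genes took 2.67 to 3.84% of counts at 0h, 2.78 to 6.98% at 2h, 7.21 to 12.4% at 4h and 3.43 to 6.66% in rev. A single protein-coding row, Lars2, took 7.34 to 17.8% of protein-coding counts at 0h and 20.0 to 39.0% at 4h. Despite the depletion, rows of ribosomal RNA took 16.8 to 38.2% of all counts at 0h and 12.8 to 34.5% at 2h. They took 19.3 to 37.4% at 4h and 23.7 to 38.7% in rev. All 8 epiblast markers were detected in each group, with a summed level of 1599 to 1845 CPM (normalised counts scaled with TMM factors) at 0h, 1480 to 1718 CPM at 2h, 1010 to 1120 CPM at 4h and 1287 to 1472 CPM in rev. The 5 primitive endoderm markers summed to 2.26 to 5.16 CPM over all libraries. Because the samples are bulk RNA, fewer cells of a type and less RNA per cell cannot be told apart.

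The start of the transcript was read from RefSeq (GRCm38.p6), which held a window for 61 of the 81 genes, and 9 of them are shown because they carry a TOP-like tract at the annotated start in genes that fell, did not pass the test or rose at 4h. Each run covers 10 bases before the start and 15 from it, 5′ to 3′, and the capitals mark a C at the start followed by at least 4 pyrimidines.
Rps15a: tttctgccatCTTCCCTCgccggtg
Rps18: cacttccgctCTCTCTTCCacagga
Fau: gcccccacttCTTCCTCTTTCTTga
Rps21: aggacccgccCTCCTgcccaatagt
Rpl15: agaaagccttCTTCCTTTCCTCTgg
Rps6: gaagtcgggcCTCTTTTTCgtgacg
Rps27: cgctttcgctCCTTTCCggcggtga
Rpl35: ccgccctttcCTCTTTCTCTCgaac
Rpl28: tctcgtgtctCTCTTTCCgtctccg
The first 5 belong to genes that fell at 4h, Rps6, Rps27 and Rpl35 to genes that did not pass the test, and Rpl28 to a gene that rose. The windows lie at chr7:118116133-118116157 (Rps15a, minus strand), chr17:33955651-33955675 (Rps18, minus), chr19:6057937-6057961 (Fau, plus), chr2:180257369-180257393 (Rps21, plus), chr14:18270972-18270996 (Rpl15, minus), chr4:86857353-86857377 (Rps6, minus), chr3:90213634-90213658 (Rps27, minus), chr2:39005117-39005141 (Rpl35, minus) and chr7:4792955-4792979 (Rpl28, plus), each across the first annotated exon's start.

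Such a tract stood at the annotated start in 14 of the 61 genes (23.0%), against 3.01% of 27025 genes with a window. Within 10 bases of the start it was found in 39 of 61 (63.9%), against 34.4% of all genes, and annotated starts can lie a few bases from the start used in these cells. The letters CCGGAAG, the core of ETS-factor sites, occurred on either strand of the 300-base window (250 bases before the start and 50 after) in 25 of 61 genes (41.0%), against 9.93% of all genes. TATAAA on either strand was found in 6 of 61 (9.84%), against 15.7% of all genes. The 27025 genes were not limited to those expressed in these cells, and the shares among other expressed genes were not taken. Of the tested genes with a tract at the start, 10 of 14 fell at 4h and 1 rose, with a median log2 fold change of -0.68. Of those with a window and no tract at the start, 37 of 46 fell and 2 rose, with a median of -0.64.

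The ribosomal protein genes were well measured except for 4 of them. A mean level above 10 CPM was seen for 77 of 81. Per kilobase of the shortest principal transcript, the median of these 77 at 0h was 204 CPM per kb. The order was led by Rps12 (696 CPM per kb ± 11.1, SD, n = 3), followed by Rpl8 (541 CPM per kb ± 34.9) and Rplp1 (535 CPM per kb ± 19.8). Rpl8 and Rplp1 did not differ beyond their spread. At the low end stood Rpl39 (39.9 CPM per kb ± 8.79), Rpl35 (39.0 ± 3.38) and Rpl13a (31.4 ± 4.27). Rpl35 had the smallest part of its transcripts in 50-base stretches unique to it (16.0%), and the median over all members was 76.3%. How reads with several matches were counted is not given in the sources used here, so low levels of genes with many processed copies are uncertain. Rpl35 also shares 883 exon bases with Arpc5l and Wdr38 on the other strand. Rpl13a shares 695 with Gm45713 and Mir5121 on the same strand. Whether these overlaps set the low levels was not tested.

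The exceptions were Rpl3l, Rpl10l, Rpl39l and Rpl24. Rpl3l, a muscle-restricted paralog of Rpl3, had 0 to 9 counts in each library and was removed by the filter on low counts, which left 80 genes tested. Rpl10l, a testis-enriched paralog of Rpl10, ran from 2.96 to 6.03 CPM and passed the test in none of the comparisons between groups named here. Rpl24, an abundant 60S protein in most cells, had only 1 to 26 counts per library. It shares 484 exon bases on the same strand with the row Gm28037, which is at 0 in each library, and whether this sets its low count was not tested.

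After 2 h of 4OHT no ribosomal protein gene passed the threshold in edgeR's quasi-likelihood test (adjusted p under 0.05, Benjamini-Hochberg over 13451 genes). Over all genes, 6.45% were called in the same comparison. At an unadjusted p under 0.05, 4 of 80 members passed, and DESeq2 called 1. The median log2 fold change of the members was 0.03, against 0.01 for all genes tested.

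**Figure D1:**
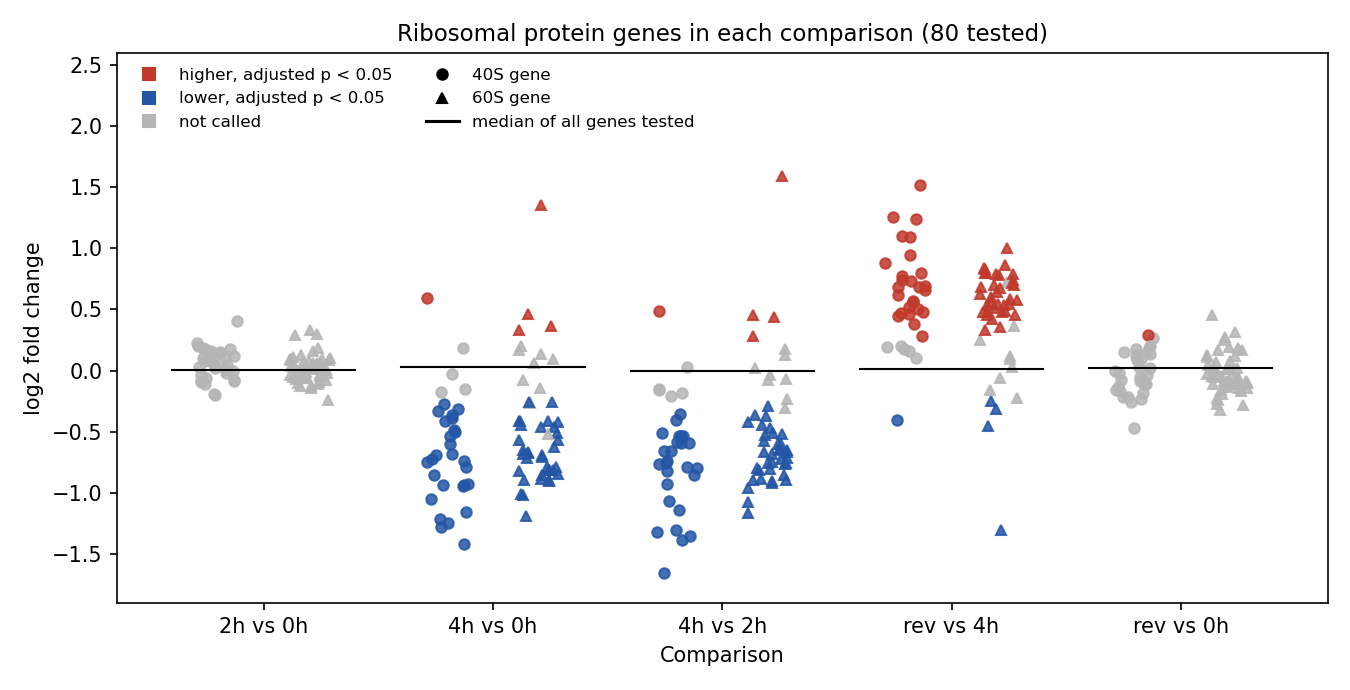
Log2 fold change of each of the 80 tested ribosomal protein genes (y axis) in 5 comparisons (x axis), with circles for 40S and triangles for 60S genes, red and blue for genes called higher or lower at adjusted p under 0.05 and grey for the others. Black lines are the median of all genes tested. At 4h 62 genes lie in blue below that line, and in rev vs 4h 61 lie in red above it.

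After 4 h of 4OHT the members fell together. Against 0h, 62 of 80 were lower and 5 were higher, where 18.9% of all genes tested were called lower and 20.5% higher. The members' median log2 fold change was -0.61, and that of all genes was 0.03. In 57 of 80 members each 4h library lay below each 0h library, which held for 18.1% of all genes. The fall was at least 2-fold in 9 members.

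Markers of cell state moved in the same libraries. Of 8 epiblast markers 5 were lower and 2 higher at 4h against 0h, with a median of -0.43. Of 6 markers of naive pluripotency 5 were higher and none lower, with a median of 2.01, and their summed level was 16.2 to 23.9 CPM at 0h, 18.4 to 24.2 CPM at 2h, 41.7 to 153 CPM at 4h and 20.3 to 28.2 CPM in rev. In rev against 4h 5 epiblast markers rose and 3 fell, and 5 naive markers fell. Under total-count scaling 6 epiblast markers were lower and 5 naive markers higher at 4h, and 3 naive markers fell in rev. In that setting 46.25% of all genes tested were lower and 476 of 13451 higher at 4h, and 2.81% were lower in rev against 4h. The 5 mesendoderm markers summed to 2.94 to 3.73 CPM at 0h, 5.69 to 12.1 CPM at 4h and 8.09 to 13.2 CPM in rev. Of 3 tested neural markers 2 were higher and 1 lower at 4h against 0h, with a median of 3.56. The 4 neural markers summed to 56.5 to 64.1 CPM at 0h and 54.7 to 73.8 CPM at 4h. Of 2 tested fibroblast markers 1 was lower and none higher at 4h against 0h. The part of these markers' changes in the fall of the ribosomal protein genes was not tested.

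Against 2h, the comparison with 4 libraries on each side, 62 members were lower (19.2% of all genes) and 5 higher (19.7% of all genes). The median was -0.65, and in 55 members the 4h libraries all lay below the 2h libraries (13.3% of all genes). The 4h libraries enter both of these comparisons, so they are not independent of each other.

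Both subunits took part. Among 40S genes 27 of 32 fell and 1 rose at 4h against 0h, with a median of -0.69. Among 60S genes 35 of 48 fell and 4 rose, with a median of -0.57. The difference between the subunits was not tested. The 81 genes lie on 20 chromosomes, with 14 of them on chromosome 7, so they do not form one genomic block.

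Rps12, a 40S protein whose gene hosts small nucleolar RNAs, stood at 339, 350 and 342 CPM in the 0h libraries and at 389, 306, 328 and 411 CPM at 2h. At 4h it stood at 136, 136, 161 and 128 CPM, and in rev at 334, 306, 397 and 302 CPM. All 4h libraries were below all others, and the rev libraries lay in the range of 2h or just under it. The change at 4h against 0h was -1.28 on the log2 scale (SE 0.11, adjusted p = 8.7122e-09, edgeR), a 2.43-fold fall.

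Rps27a, made as a fusion of ubiquitin with a 40S protein, had 114, 127 and 123 CPM at 0h, 132, 126, 123 and 162 CPM at 2h, 55.6, 47.9, 55.3 and 49.4 CPM at 4h, and 135, 115, 133 and 108 CPM in rev. Its 4h libraries did not overlap any other group. The log2 fold change against 0h was -1.21 (SE 0.11, adjusted p = 2.3122e-08, edgeR). Rps27a shares 160 exon bases with Clhc1 on the other strand. Fau, the other member made as a fusion with a ubiquitin-like protein, fell by 0.95 on the log2 scale.

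Rps15a, a 40S protein, had 109, 98.7 and 93.9 CPM at 0h and 45.2, 39.99, 53.7 and 42.2 CPM at 4h. In rev it had 104, 101, 92.3 and 92.1 CPM, so that the rev libraries overlapped those at 0h. Rps14, a 40S protein of the platform, showed the most negative value of all members, -1.42 (SE 0.23, adjusted p = 0.00045942, edgeR). Its levels were 290, 236 and 216 CPM at 0h, 75.7, 89.4, 116 and 88.2 CPM at 4h and 202, 153, 192 and 164 CPM in rev. The rev libraries of Rps14 lay between the 4h and the 0h libraries and overlapped neither.

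Among 60S genes the largest fall was that of Rpl9, with 194, 204 and 193 CPM at 0h and 86.7, 76.5, 103 and 76.1 CPM at 4h (log2 fold change -1.19, SE 0.12). Rplp0, the base of the stalk that recruits elongation factors, had 501, 467 and 451 CPM at 0h, 230, 251, 298 and 259 CPM at 4h and 414, 435, 480 and 475 CPM in rev. Its partners in the stalk, Rplp1 (-0.57) and Rplp2 (-0.81), also fell on the log2 scale. Rplp1 lost its call with the corrections for transcript length (-0.26) and for length and GC content (-0.14) described with the length classes. Rpl5 and Rpl11, which with 5S ribosomal RNA form the particle that can bind the p53 regulator Mdm2, fell by 0.85 and 0.81. Rpl8, 1 of the 3 members with the highest mean count, fell by 0.81.

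**Figure D2:**
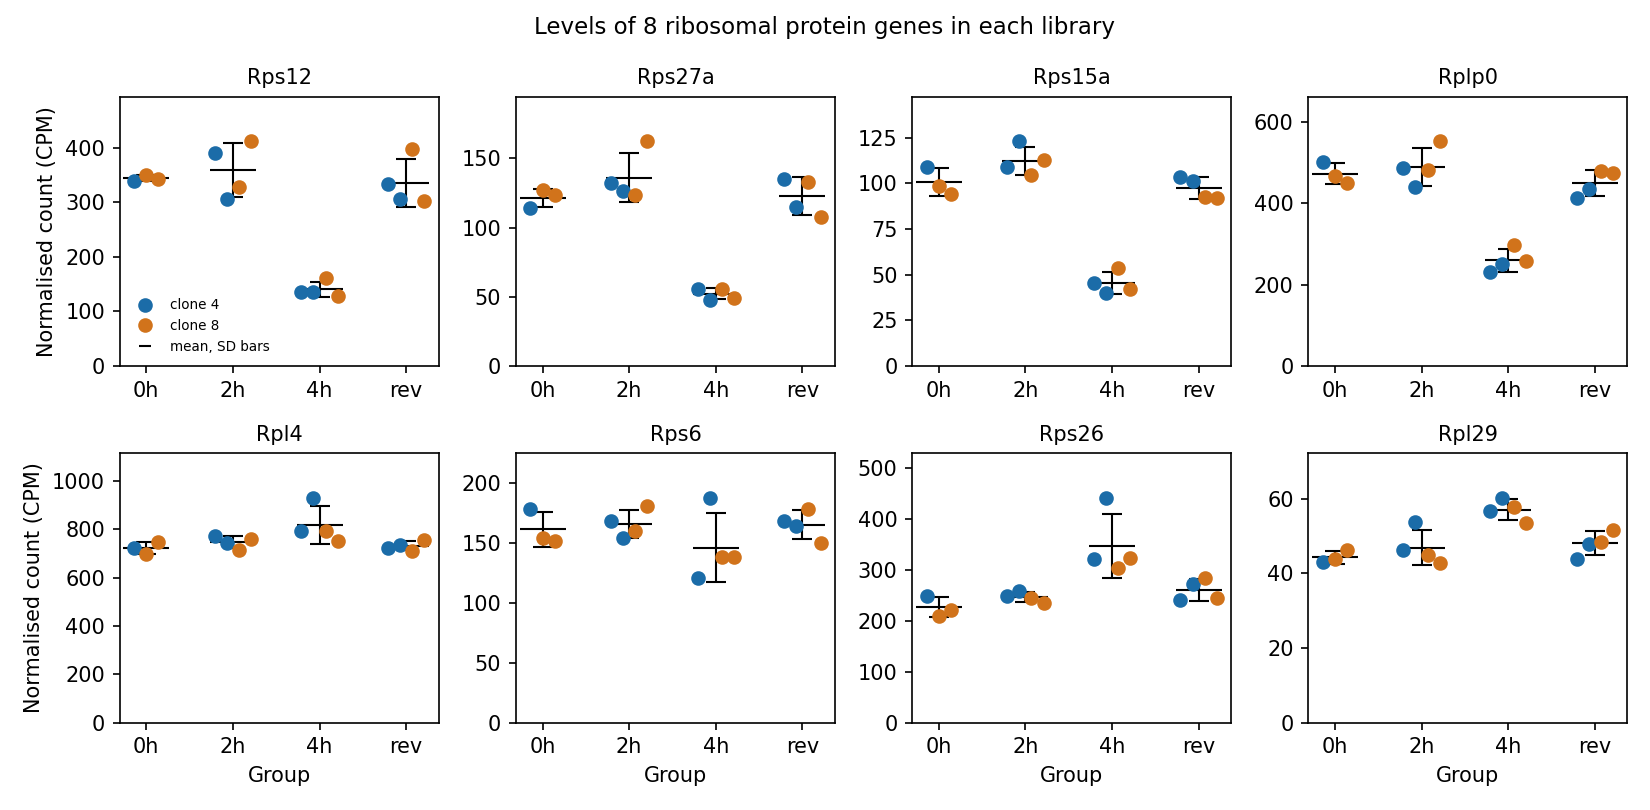
Normalised count in CPM (y axis, from 0) of 8 ribosomal protein genes in each of the 15 libraries by group (x axis), with blue points for clone 4, orange points for clone 8, and the mean with SD bars. Rps12, Rps27a, Rps15a and Rplp0 are lowest at 4h, Rpl4 and Rps6 did not pass the test, and Rps26 and Rpl29 have their highest mean at 4h.

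On the X chromosome Rps4x (-0.68), Rpl10 (-0.51) and Rpl36a (-0.65) fell on the log2 scale at 4h against 0h. Rpl39 had a value of -0.52 and an adjusted p of 0.086808 (edgeR), with 18.2 to 27.7 CPM at 0h and 9.87 to 20.7 CPM at 4h. Against 2h it passed the test, but not with the correction for length (-0.59, adjusted p = 0.07591, edgeR) or for length and GC content (-0.61, adjusted p = 0.0661). A short list, not complete, was taken of members whose loss is known to cause Diamond-Blackfan anemia in people. Of its 9 members 8 fell, among them Rps19 (-0.79) and Rpl5, and Rps26 rose. Of all 80 members tested 62 fell.

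Of the members that carry an annotated small nucleolar RNA 23 of 29 fell, and of those without one 39 of 51. Members with no exon shared with another gene gave 46 lower and 3 higher of 57. Members with at least 80% of their sequence in unique 50-base stretches gave 24 lower and 2 higher of 33, with a median of -0.79.

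The members did not all fall. Rps26, a 40S protein at the mRNA exit channel, had 249, 210 and 221 CPM at 0h, 248, 258, 244 and 235 CPM at 2h, 320, 441, 304 and 322 CPM at 4h and 241, 272, 284 and 245 CPM in rev. Each 4h library was above all others, and the change against 0h was 0.59 (SE 0.10, adjusted p = 0.0001128, edgeR). Under scaling by total count, which lowers the median of all genes at 4h by 0.73, Rps26 turned to -0.14 and did not pass, so its rise is relative to the other genes.

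The other risers included Rpl29 (0.36), Rpl28 (0.33) and Rpl39l (1.36), and total-count scaling turned Rpl29 and Rpl28 to -0.35 and -0.37. Rpl29 had 43.0 to 46.2 CPM at 0h and 53.5 to 60.2 CPM at 4h, with no overlap. Rpl28 had 136 to 157 CPM at 0h and 174 to 204 CPM at 4h. It shares 183 exon bases with Ube2s on the other strand, and the handling of strand is not given in the sources used here. Rpl28 lost its call without 0h clone4_1 (0.28), 0h clone8_1 (0.29), 4h clone4_2 (0.27) or 4h clone8_2 (0.32), and Rpl29 lost it without 0h clone4_1 (0.32). Rpl28 also lost it in DESeq2 (0.31), in thinned libraries (0.32) and with no filter (0.21). Rpl29 also lost it in thinned libraries (0.26) and with no filter (0.24). Rpl39l, a paralog of Rpl39 known from testis, rests on 1 to 23 counts per library, its 0h and 4h values overlapped, and it lost its call without 0h clone4_1 (1.12), 0h clone8_2 (1.07), 4h clone8_1 (1.11) or 4h clone8_2 (1.23).

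Rpl4, the member with the highest mean count, had 721, 698 and 749 CPM at 0h and 793, 929, 792 and 751 CPM at 4h, so that each 4h library was just above each 0h library. Its log2 fold change of 0.17 (SE 0.07) had an adjusted p of 0.07274 (edgeR). Rps6, the 40S protein phosphorylated by S6 kinases and RSK, is singled out here after its values were seen. It had 178, 154 and 152 CPM at 0h, 121, 188, 138 and 138 CPM at 4h and 168, 165, 179 and 150 CPM in rev, with overlapping groups and a log2 fold change of -0.15 (SE 0.11). In all, 13 members did not pass at 4h against 0h: Rpl4, Rpl10l, Rpl21, Rpl23, Rpl23a, Rpl24, Rpl31, Rpl35, Rpl39, Rps6, Rps27, Rps28 and Rps29.

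Paralogs gave unlike values in some pairs, chosen after their values were seen and set side by side without a test of their difference. Rps27 had a log2 fold change of -0.03 at 4h against 0h and Rps27l, a close paralog known as a p53 target, had -1.25. Rps27l stood at 30.5, 41.1 and 42.2 CPM at 0h, 40.1, 52.7, 55.99 and 46.0 CPM at 2h, 12.2, 13.8, 19.8 and 15.8 CPM at 4h and 41.1, 47.6, 45.7 and 41.4 CPM in rev. Its 2h value of 0.41 was the highest of the members in that comparison (adjusted p = 0.069486, edgeR). Rpl22 had -0.89 and Rpl22l1, its paralog outside the symbol rule, -1.53.

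As a share of protein-coding counts outside the mitochondrial genome, the 81 genes summed to 3.91, 3.86 and 3.45% at 0h and to 3.68, 3.16, 3.18 and 4.32% at 2h. At 4h they summed to 2.18, 1.82, 2.05 and 1.96%, and in rev to 3.59, 2.97, 3.32 and 3.14%. The means were 3.74% ± 0.253 (SD, n = 3), 3.59% ± 0.546, 2.00% ± 0.153 and 3.25% ± 0.262 (SD, n = 4 each). No 4h library reached the level of any other library. The 4h mean was 1.87-fold below that at 0h.

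The share depends on what its total holds, and the Lars2 row took more of that total at 4h. With mitochondrial genes and the 20 rows of highest count taken out, the share was 4.34% ± 0.0292 at 0h (SD, n = 3), 4.16% ± 0.413 at 2h, 2.94% ± 0.2 at 4h and 4.09% ± 0.293 in rev (SD, n = 4 each). The 4h mean was then 1.47-fold below that at 0h, and the 4h libraries (2.73 to 3.14%) still lay below all others (3.79% or more). Rows named as pseudogenes of the members held 0.50 to 0.61% of the members' counts on average per group, so adding them changed little.

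**Figure D3:**
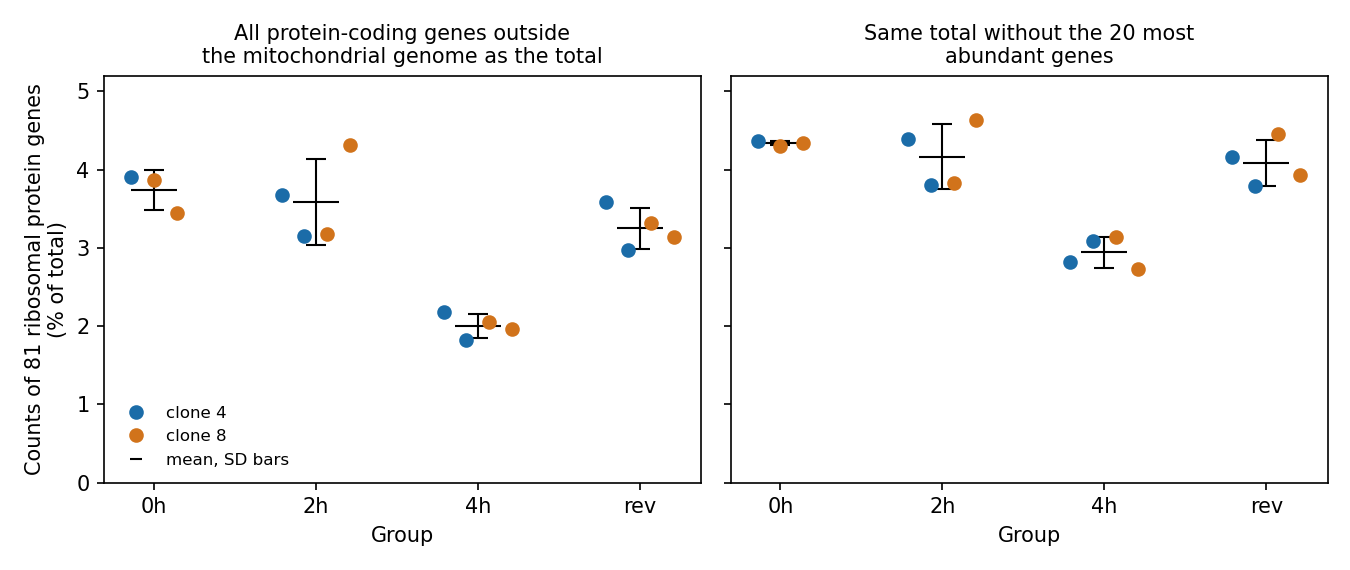
Summed counts of the 81 ribosomal protein genes as a percent of protein-coding counts (y axis, from 0) in each library by group (x axis), with all protein-coding genes outside the mitochondrial genome as the total on the left and the same total without the 20 most abundant genes on the right. Points are libraries, bars the mean and SD, and in both panels the 4 libraries at 4h lie below the other 11.

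After the MEK inhibitor the members rose. In rev against 4h, 61 of 80 were higher (15.1% of all genes) and 5 were lower (15.6% of all genes), with a median log2 fold change of 0.55 against 0.02 for all genes. In 59 members each rev library lay above each 4h library, which held for 11.9% of all genes. The largest rises were those of Rps27l (1.52, SE 0.13), Rps12 (1.26, SE 0.10), Rps27a (1.24, SE 0.10), Rps15a (1.10, SE 0.10), Rps21 (1.10, SE 0.13) and Rpl9 (1.00, SE 0.11). Those that went down included Rpl39l, Rps26, Rpl28 and Rpl29, the last with an adjusted p of 0.046506 (edgeR) and a value of -0.25. Rpl29 lost this call in 6 of 8 fits without 1 library (-0.20 to -0.27), those without any but 4h clone8_2 or rev clone8_2. Rpl28 lost it in 5 of 8 (-0.21 to -0.33), without 4h clone4_2, 4h clone8_2, rev clone4_1, rev clone4_2 or rev clone8_2. Rpl39l lost it in 4 of 8 (-0.96 to -1.31), without any of the clone 8 libraries. Under total-count scaling Rpl28 and Rpl29 turned to 0.07 and 0.14 here. Rps26 (-0.01) and Rpl39l (-0.81) kept their sign but lost their calls, and no member was lower in that setting (2.81% of all genes). Over all settings and left-out libraries tried, Rpl29 lost this call in 12 of 21, Rpl28 in 8 of 21 and Rpl39l in 5 of 19. The comparison uses the same 4h libraries as those above.

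Against 0h, 1 member passed in rev, Rps28, where 11.2% of all genes were called in either direction. Rps28, a small 40S protein, had 74.5, 76.0 and 76.3 CPM at 0h and 85.8, 92.4, 104 and 87.5 CPM in rev, a change of 0.29 (SE 0.09, adjusted p = 0.04942, edgeR). It shares 88 exon bases with Kank3 on the other strand, and 14 of the 20 other settings and left-out libraries tried ended its call, among them 6 of the 7 libraries left out (0.18 to 0.32), all but rev clone4_1. The members' median was -0.05. Fitted with only the groups compared, 6 members were lower (11.57% of all genes) and 3 higher (1458 of 12761 genes). Against 2h no member passed in rev (2.31% of all genes called), with 2 of 80 at an unadjusted p under 0.05 and none by DESeq2, and the median was -0.07. A gene that does not pass is not shown to be equal: Rps14, at -0.47 in rev against 0h (SE 0.23), had an adjusted p of 0.21401 (edgeR).

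**Figure D4:**
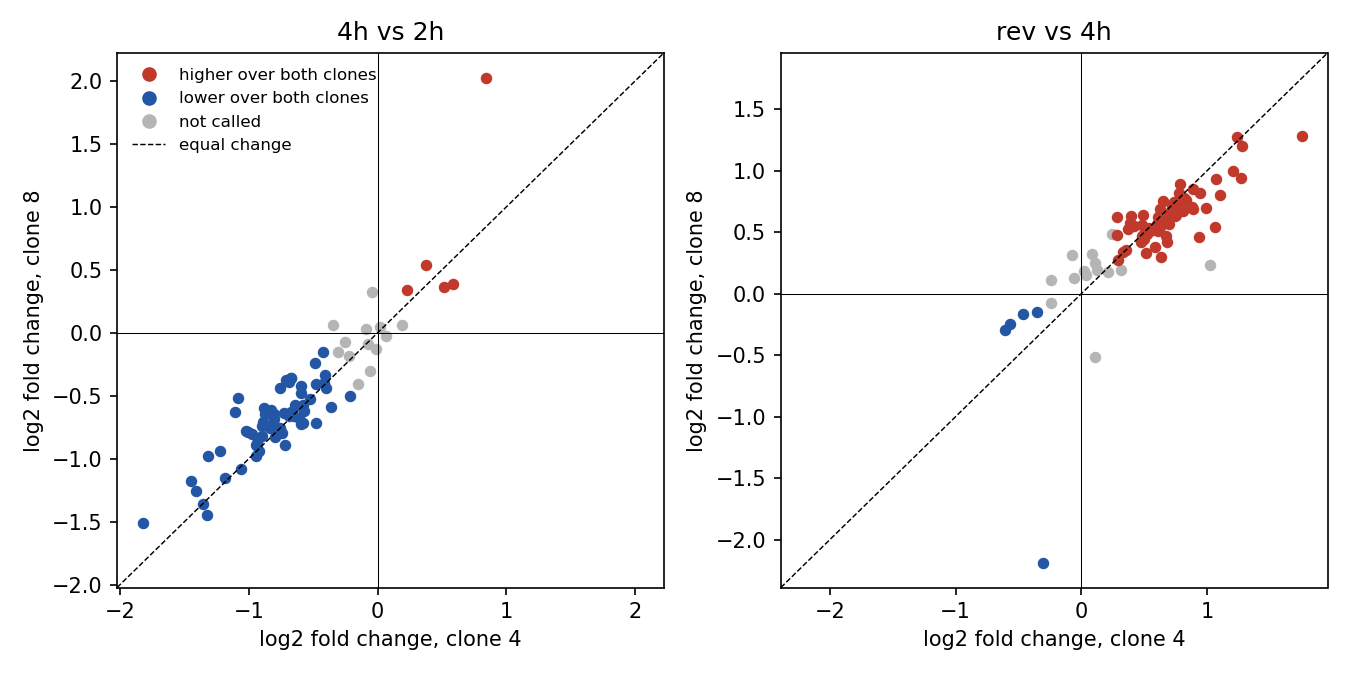
Log2 fold change of each of the 80 tested ribosomal protein genes in clone 4 (x axis) and clone 8 (y axis) for 4h vs 2h (left) and rev vs 4h (right), with the dashed line at equal change and colours for the call over both clones. Most genes called lower on the left have negative values in both clones, and most called higher on the right have positive ones.

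The change was seen in both clones. For 4h vs 2h the members' median was -0.67 in clone 4 and -0.62 in clone 8, and 76 of 80 had the same sign. For rev vs 4h it was 0.60 and 0.54, again with 76 of the same sign. For 4h vs 0h, where clone 4 has 1 library at 0h, it was -0.68 and -0.59. No member passed the joint test of clone by group (3.18% of all genes called), with none at an unadjusted p under 0.05 and none by DESeq2.

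Between the clones themselves 1 member was higher in clone 8 (10.4% of all genes called higher) and 1 was lower (8.11% of all genes). Rpl32 stood at 90.4 to 157 CPM in the 7 libraries of clone 4 and at 147 to 259 CPM in the 8 of clone 8, and within each group the clones did not overlap. It shares 53 exon bases with Cand2 on the other strand. Its log2 difference was 0.68 (SE 0.07, adjusted p = 3.0763e-07, edgeR). Rpl34 was lower by 0.30 in clone 8 (log2 difference -0.30, SE 0.07). With a correction for transcript length the count of members that differed between the clones was 10, and the share over all genes in that fit was not taken.

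Transcript length moved with the fall. Most ribosomal protein mRNAs are short, and other protein-coding genes of at most 500 bases had a median of -0.50 at 4h against 0h (90 genes), next to -0.66 for 20 members of that length. From 501 to 750 bases the medians were -0.22 for 266 others and -0.56 for 22 members, from 751 to 1000 bases -0.18 and -0.54, and from 1001 to 1500 bases -0.17 and -0.58. Others over 5000 bases had 0.14. In each of these length classes that held members their median was the lower one, and the gap was smallest for the shortest transcripts. Lengths are those of the shortest principal annotated transcript, which may not be the form present in these cells. From 2001 to 3000 and from 3001 to 5000 bases there was only 1 member each, Rpl5 (2045 bases) and Rps20 (3706 bases).

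**Figure D5:**
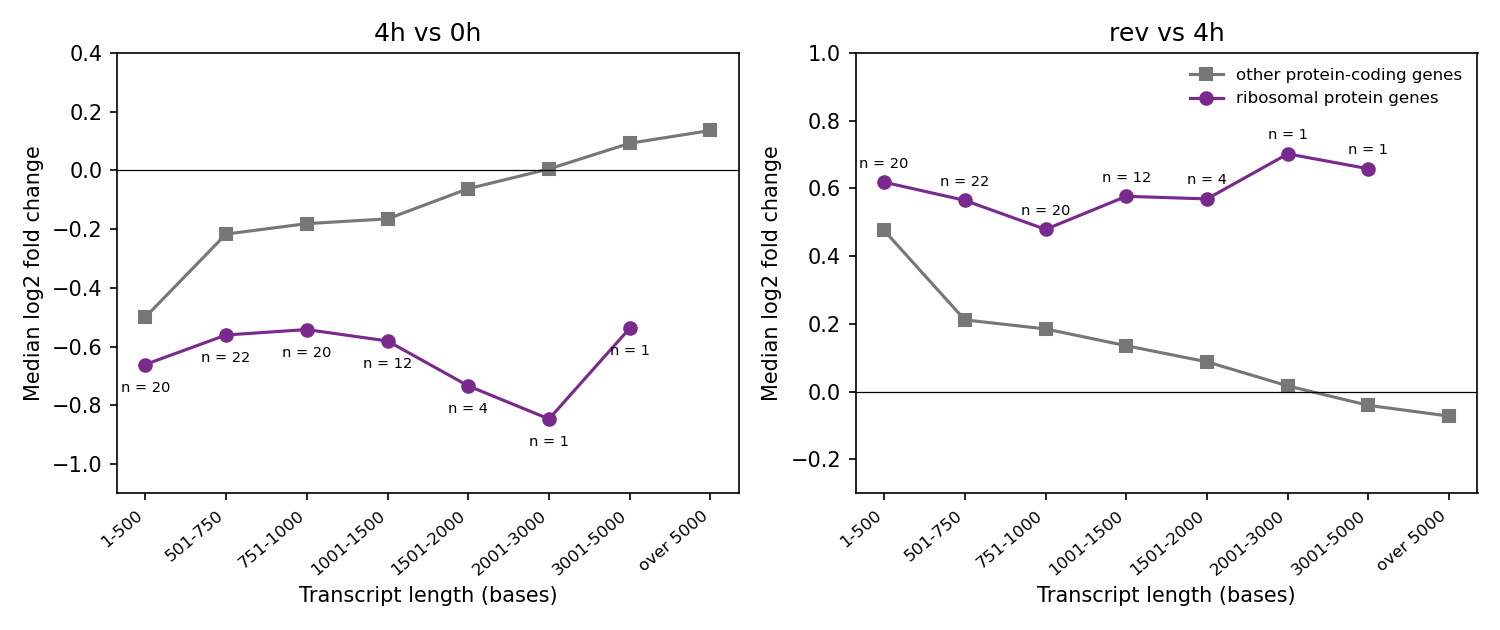
Median log2 fold change (y axis) by transcript length class in bases (x axis) for ribosomal protein genes (purple, with their number) and other protein-coding genes (grey), for 4h vs 0h on the left and rev vs 4h on the right. In each length class with members, the purple points lie below the grey ones at 4h and above them in rev vs 4h.

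With an offset that removes the trend with length in each library, chosen after seeing the data, 47 members were lower and 10 higher at 4h against 0h, with a median of -0.35. Over all genes in that fit, 18.67% were lower and 2608 of 12176 higher. In rev against 4h the offset left 43 higher (1502 of all 12176 genes) and 8 lower (18.39% of all genes), with a median of 0.28. The offset is fitted over genes that include the members. Across the 77 members above 10 CPM the change at 4h had a Spearman's rho of 0.07 with length, 0.07 with GC content and -0.29 with the unique share of the sequence, as a description of genes that share the same libraries. With each library thinned to the same depth, 55 of 77 members were lower and 2 higher at 4h against 0h, with a median of -0.67. The mitochondrial share was higher at 4h, along with the fall, and lower again in rev (3.43 to 6.66%), along with the rise. Its part in either change was not tested.

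Other parts of the translation machinery were read beside these genes, from lists chosen with earlier results of these data known. The 78 genes of mitochondrial ribosomal proteins, which are encoded in the nucleus and whose mRNAs are not of the TOP class, gave 25 lower and 5 higher of 77 tested at 4h against 0h, with a median of -0.27. In rev against 4h 18 rose and 4 fell. For the cytosolic genes these numbers were 62, 5, 61 and 5 of 80. As shares of the mitochondrial family they were 32.5%, 6.49%, 23.4% and 5.19%. Over all genes tested the shares were 18.9%, 20.5%, 15.1% and 15.6%. The difference between the 2 families was not tested.

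Of 6 tested genes for other components or paralogs of the cytosolic ribosome, 5 fell, among them Rpl22l1 (-1.53), Rps3a1 (-0.83, a 40S protein that the symbol rule leaves out) and Rack1 (-0.55, a scaffold on the 40S head). Rpl22l1, Rps3a1 and Rack1 rose in rev against 4h.

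Among 20 non-ribosomal genes with TOP mRNAs, 10 fell and 1 rose at 4h against 0h, with a median of -0.25. Eef1b2 (-1.15) and Eef1d (-0.68), subunits of the exchange factor of elongation factor 1, fell, as did Cct4 (-0.56), a chaperonin subunit, and the helicase Eif4a2 (-0.53). Pabpc1, the cytoplasmic poly(A)-binding protein, rose by 0.43. Under total-count scaling 19 of the 20 were lower and none higher, where 46.25% of all genes tested were called lower. In rev against 4h 11 rose and 1 fell. With TMM, 18.9% of all genes tested were lower at 4h against 0h and 15.1% higher in rev against 4h. Of 7 tested host transcripts of small nucleolar RNAs, 6 fell, led by Gas5 (-1.15, a TOP transcript with no protein product of note), Snhg8 (-1.05), Snhg12 (-0.84) and Zfas1 (-0.80). Snhg8 lost its call with no clone term (-0.96) and in thinned libraries (-1.08).

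Of 14 genes around mTORC1 and LARP1, 4 rose (28.6%) and 2 fell (14.3%) at 4h against 0h, shares near the 20.5% and 18.9% of all genes tested. Under total-count scaling none rose and 6 fell, where 46.25% of all genes tested were called lower and 476 of 13451 higher. Larp1 itself had -0.02 (SE 0.08). Akt1s1, the mTORC1 inhibitor PRAS40, fell by 0.82 and rose by 0.74 in rev against 4h. Eif4ebp1, a repressor of cap-dependent translation, rose by 0.53 at 4h and fell by 0.54 in rev. Rps6kb1, the S6 kinase, rose by 0.55 at 4h. Total-count scaling turned the 4h values of Rps6kb1 and Eif4ebp1 to -0.20 and -0.18. Deptor, another mTORC1 inhibitor, had 0.27 at 4h without passing and fell by 0.73 in rev, a call lost under total-count scaling (-0.35).

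Of 6 kinases of the RSK and MSK family, Rps6ka3 (RSK2) rose by 1.30 at 4h against 0h, with 12.9 CPM at 0h and 34.9 CPM at 4h in the group means. Under total-count scaling its value was 0.60 and did not pass (adjusted p = 0.09042, edgeR). Rps6ka2 (RSK3) fell by 1.505, Rps6ka4 (MSK2) by 1.10 and Rps6ka6 (RSK4) by 0.33. Rps6ka2, Rps6ka4 and Rps6ka6 rose in rev against 4h, by 0.64, 0.74 and 0.51. Rps6ka2 lost this call in thinned libraries (0.52) and with no clone term (0.64). Rps6ka4 lost this call in 6 of 8 fits without 1 library (0.48 to 0.80), those without any but 4h clone4_1 or rev clone8_2, and Rps6ka6 lost its call at 4h without 0h clone4_1 (-0.37), 0h clone8_1 (-0.32), 4h clone4_1 (-0.25) or 4h clone8_1 (-0.31). These are changes in mRNA, and kinase activity was not measured.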

How the data were processed

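Whole-number counts per Ensembl gene were deposited by the authors without normalization. Per the submitters' processing notes, bcl2fastq 2.19.1 and STAR 2.5.3a were used with mm10; the counting tool, annotation, strand and multi-mapping rules are not given in the sources used here. Symbols, exons and transcripts came from GENCODE M21 (GRCm38). The members, lists and tests were chosen with earlier results of these data known. Genes kept by filterByExpr (minimum count 10, total 15) were fitted in edgeR 4.0.16 (R 4.3.3) with TMM factors, all 15 libraries and terms for group and clone, and tested by quasi-likelihood with Benjamini-Hochberg adjustment over all 13451 genes. SE is the log2 fold change over the root of F. The fit was also run on simulated counts in which a small part of the genes was raised and lowered equally at 4h. That run does not test the scaling of the real 4h libraries. Clones and replicates are the labels', and where replicates are not separate cultures p-values measure only the spread between these samples. Alternatives included DESeq2 1.42.0. Genes described singly are those with the 6 largest called changes in each direction per comparison, the 3 most abundant and small functional lists; the other genes named were chosen after their values were seen. Some genes that this rule takes are not reported here singly, and they remain in the counts and medians.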

Additional observations from a re-analysis of the deposited data

Results flagged for a closer look

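In 81 groups of 4 libraries (the summed share and the genes described singly, at 2h, 4h and in rev), 1 held a library far from the others, where chance gives about 4. Rps26 stood at 440.61 CPM in 4h clone4_2, against 304 to 322 CPM in the other 4h libraries.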

How the results depend on the processing

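The median fall at 4h and the median rise in rev kept their direction under all the alternatives run. In the fits with all libraries 57 to 70 members were called at 4h against 0h, counting both directions. Those called lower ran from 47 (length correction, with 10 higher) to 70 (total-count scaling, with 0 higher). Of all genes tested, 18.67% were lower with the length correction and 46.25% under total-count scaling. Of 322 alternative values of the counts, medians and shares, 279 stayed within 1.5 times the count or 1 SD of the value. Scaling by total count moved the medians to -0.145 (2h against 0h), -1.3409 and -1.1925 (4h against 0h and against 2h) and 0.9612, -0.3711 and -0.2164 (rev against 4h, 0h and 2h). It also moved the median of all genes, by construction, so that the members stood 0.61 below it at 4h against 0h, as against 0.64 with TMM. It turned Rps26 to -0.1391 and -0.058, Rpl29 to -0.3497 and -0.2354 and Rpl28 to -0.3674 and -0.0618 at 4h against 0h and 2h. In rev against 4h it turned Rpl29 to 0.1432 and Rpl28 to 0.0673, in rev against 0h Rps28 to -0.0464, and at 4h against 0h Rps6kb1 to -0.1981 and Eif4ebp1 to -0.177.

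Corrections chosen after seeing the data brought the medians to -0.3487 (length) and -0.38 (length and GC) at 4h against 0h, -0.386 and -0.3594 at 4h against 2h, and 0.2797 and 0.2866 in rev against 4h. The count of members that differed between clones became 10 and 11, and it was 1 under total-count scaling and 1 with thinned libraries. The cause was not tested, and the shares over all genes in these fits were not taken. At 2h against 0h, 1 member was called without the 20 most abundant and mitochondrial genes, 1 by DESeq2 and 1 by edgeR's legacy method, and 0 to 2 when a library was left out. In rev against 0h, 0 members were called with the replicate block, with no clone term, with total-count scaling or with TMM without the members. The count was also 0 with thinning and with the length and GC correction, and 0 to 1 when a library was left out. With no filter 5 were called, all lower (2.938% of all genes lower). With only the groups compared 9 were called, 6 lower (11.57% of all genes) and 3 higher (1458 of 12761 genes). The summed share was 1.716% (0h), 1.527% (2h), 0.7301% (4h) and 1.309% (rev) of all counts, and 4.339%, 4.165%, 2.943% and 4.087% without the 20 most abundant and mitochondrial genes, both set by the smaller or larger total.

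Replicate numbers are shared between groups, but same-numbered libraries did not deviate together (r of -0.19 to 0.26 over 9 pairs, 1 over 0.1), so they are not treated as paired. With a replicate block 66 members were called in either direction at 4h against 0h and 67 in rev against 4h. Leaving out a library gave 58 to 66 and 58 to 65 members, and the joint test of clone by group could not be fitted without 0h clone4_1. The 4h libraries are the thinnest, so low members such as Rpl39l, with 1 to 14 counts there, are the least certain.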
